A study of Nicrophorus vespilloides with 60 samples.

Results

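Larvae of the burying beetle *Nicrophorus vespilloides* from populations that had evolved with or without parental care were compared when all of them were raised without care. The comparison used 23 of the 46 RNA libraries of the series, chosen by their labels: 12 from the No Care (NC) population, in groups N1_NC and N2_NC, and 11 from the Full Care (FC) population, in groups F1_NC and F2_NC. All 23 libraries came from first instar larvae whose parents had prepared the carcass and were then taken away before hatching, so they share the environment and differ in the regime under which their ancestors bred. In the NC population parents had been removed in every generation, and in the FC population they had been left with the brood, so that loss of care was new to the FC larvae. Each population was kept as 2 lines founded from the same interbred wild beetles, with F1 and N1 forming block 1 and F2 and N2 forming block 2, which ran at different times. Block 1 held 5 families of F1 and 6 of N1, and block 2 held 6 of F2 and 6 of N2.

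Each library pooled the heads of several larvae of 1 family. Families are the replicates here, so p-values measure the spread among families and not among independently evolved lines, of which each population has only 2. Whether the tissue is head alone was not checked here against marker genes, because most identifiers in the count table carry no gene name. In pooled heads, fewer cells of a type and less RNA per cell cannot be told apart.

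Burying beetles breed on the carcass of a small vertebrate, which both parents strip, shape and coat with antimicrobial secretions. After hatching, the parents feed the larvae by regurgitation and keep defending the brood and its food from microbes and rivals. Larvae without parents must open the carcass and feed by themselves, with no shared oral fluids and no further cleaning of the carcass. Genes with a bearing on such a life include those for immune defence, detoxification of food and microbial compounds, smell and taste, growth of the cuticle, and protein protection under stress.

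The 23 libraries held 102720000 to 145666000 counts each, with 10920 to 11409 genes at 15 counts or more, and the ranges of NC and FC libraries overlapped in both. No pair of libraries within a group looked like copies: among 55 pairs the highest correlation was 0.970 and at most 0.207% of genes had the same count. The first principal component of the log2 CPM (CPM, the count scaled to library size) took 24.7% of the variance and followed the TMM scaling factor of the libraries (Pearson r = 0.895, Spearman rho = 0.827, over 23 libraries of 4 lines, given as a description). N1 families had the highest mean score on it, 36.4 ± 43.8 (SD, n = 6), and N2 families the lowest, −19.8 ± 35.2 (SD, n = 6). The 2 lines of the NC population thus had the highest and the lowest mean, but their families overlapped. On the second component, with 14.1% of the variance, all 6 N2 families scored above 0 and the NC and FC families overlapped. The mean score there was 15.2 ± 29.6 (SD, n = 12) for NC families and −16.6 ± 25.5 (SD, n = 11) for FC families. Both blocks had this order of means: 3.01 for N1 against −15.8 for F1, and 27.5 for N2 against −17.3 for F2. These scores are given as a description. One family, N2_08, stood alone at 80.2 on the third component.

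**Figure D1:**
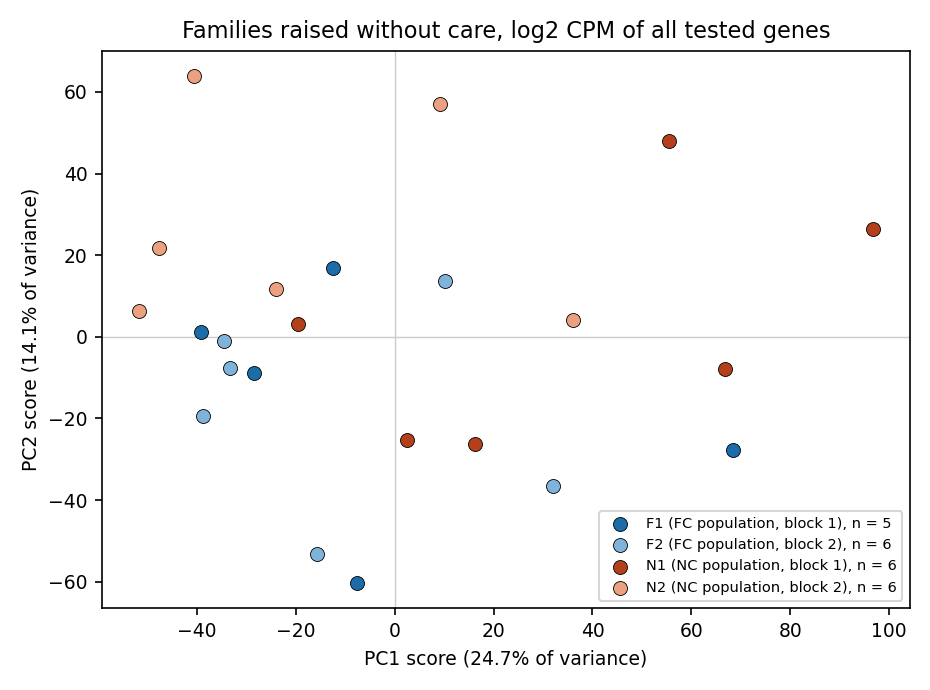
Scores of the 23 families raised without care on the first and second principal components (axes, with the percent of variance each takes), 1 point per family, coloured by line. Points of 5 of the 6 N1 families lie above 0 on the first component and all 6 N2 families lie above 0 on the second, while F1 and F2 families are mixed with both.

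Few genes were called different between the populations in the main fit of the larvae raised without care. Of 11777 genes tested, 1 met both limits of a differentially expressed gene (DEG), an adjusted p under 0.01 and at least a 2-fold change, which is 0.00849% of the genes. The test was edgeR's quasi-likelihood F test, and p values were adjusted by Benjamini-Hochberg over all genes tested. At an adjusted p under 0.05, 34 genes (0.289%) were higher and 39 (0.331%) lower in the NC population, together 73 (0.62%). Of these, 54 changed less than 2-fold and 19 (0.161%) more. An unadjusted p under 0.05 was found in 1837 genes (15.6%), and 517 genes (4.39%) differed at least 2-fold at any p. No gene had all 12 NC libraries on one side of all 11 FC libraries (0 of 11777), and in 2 genes (0.017%) the lines did not overlap within either block in the same direction. DESeq2 called 42 DEGs on the same libraries, 15 higher and 27 lower, and a fit of all 46 libraries with the same contrast called 10 (0.0849%). On simulated counts made from these libraries, edgeR found 172 of 200 genes changed by 1.5 on the log2 scale, with 2 false calls, and DESeq2 found 181, with 3. The 200 genes were drawn only from those above a minimum mean count, and the noise followed the count model that both tools assume. The tools were thus much closer there than on the real libraries. Smaller changes were not simulated, nor were differences between blocks or lines. The simulation therefore does not show how many changes the main fit missed. The count of 73 depended on single families: it fell by over 1.5 times without any of F1_01, F1_09A, F2_36, F2_38, F2_41, F2_45, F2_47, N1_30, N1_33, N1_35, N2_01, N2_03, N2_06 or N2_10, to as few as 15 without F2_36, and reached 216 without N1_37.

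The 1 DEG, gene10793, has no name in the sources used here. Its level in the NC population ran from 0.243 to 1.35 CPM with a median of 0.466, and in the FC population from 0.862 to 6.53 CPM with a median of 2.996. Of the 12 NC families, 9 lay below the lowest FC family, F1_03. The log2 fold change was −2.32 (standard error 0.319, edgeR adjusted p = 0.00281). F2 families were the highest, at 2.996 to 6.53 CPM, followed by F1 at 0.862 to 2.65, and the ranges of N1 and N2 coincided largely, at 0.264 to 0.899 and 0.243 to 1.35. The change was −1.71 (standard error 0.391) in block 1 and −2.85 (standard error 0.420) in block 2, where the edgeR adjusted p values were 0.296 and 0.0177. The adjusted p was under 0.01 in 20 of 23 fits that left out a family and over it without F1_06, where it was highest (0.0113), F1_09A or N2_01. With care, in libraries that the test above did not use, the change was −2.31 (standard error 0.580, edgeR adjusted p = 0.187).

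A further 3 genes without a name, chosen after their values were seen, are given as examples. In gene13496 the NC families ran from 0.439 to 2.32 CPM (median 1.23) and the FC families from 0.157 to 0.959 (median 0.432), a log2 fold change of 1.30 (standard error 0.215, edgeR adjusted p = 0.0156). Here 10 of 12 NC families were above every FC family. In gene12342 the NC families ran from 0.203 to 4.20 CPM (median 1.07) and the FC families from 0 to 0.562 (median 0.0562), a change of 3.28 (standard error 0.620, edgeR adjusted p = 0.0195). Here 11 of 12 NC families were above every FC family. In gene6036 the direction was the opposite, with NC families at 0.683 to 2.23 CPM (median 1.31), FC families at 1.47 to 5.52 (median 2.90) and a change of −1.30 (standard error 0.233, edgeR adjusted p = 0.0156). All 3 changes kept their sign in each block, which choosing them by the pooled test favours. With care, in other families, the changes in blocks 1 and 2 were 0.74 and 1.13 for gene13496. They were 2.55 and −0.37 for gene12342, and −0.61 and −1.15 for gene6036.

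Gene names were available for 82 identifiers, which the study had picked from these libraries. They had differed from FC larvae with care in NC larvae without care but not in FC larvae without care, so both groups compared here decided membership. The FC families raised with care decided it too, so the values with care of listed genes are not independent of the choice. The counts below are therefore a description, and nothing is read from setting them beside all genes. Of the 78 that passed the filter, 3 were higher and 1 lower in the NC population at an edgeR adjusted p under 0.05, against 0.62% of all genes in either direction. An unadjusted p under 0.05 was found in 15 with a positive and 7 with a negative fold change, where 7.86% and 7.74% of all genes had one. The median log2 fold change of the 78 was 0.14, against −0.01 over all genes tested, with 43 positive and 35 negative values. In block 1 alone, 17 positive and 21 negative values had an unadjusted p under 0.05 (4.74% and 5.17% of all genes), and in block 2 alone 9 and 5 (9.69% and 7.43%). The sign was the same in both blocks in 42 of the 78, against 53.7% of all genes. A further 4 listed genes had too few counts to be tested: LOC108564450, LOC108565739, LOC108565348, a juvenile hormone acid O-methyltransferase-like gene, and LOC108558096.

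LOC108566886, annotated as coiled-coil domain-containing protein 12 (a component of the spliceosome in humans), was higher in the NC population. Its level ran from 7.04 to 19.6 CPM in NC families (median 12.1) and from 3.12 to 10.8 CPM in FC families (median 7.53). Of the 12 NC families, 10 were above the highest FC family, and N2_08 and N2_10 were not. The log2 fold change was 0.87 (standard error 0.162, edgeR adjusted p = 0.0186), with 0.77 (standard error 0.172) in block 1 and 0.98 (standard error 0.263) in block 2. The adjusted p stayed under 0.05 when any of the 23 families was left out, from 0.0122 to 0.0428. With care, in other families of the same lines, the change was 1.18 (standard error 0.153, edgeR adjusted p = 0.00087). The FC families among these had also decided membership of the list. All 6 N1 families, with care and without it, lay above all F1 families of the same environment.

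The listed heat shock gene, LOC108564555, annotated as heat shock 70 kDa protein 1A-like, encodes a chaperone that refolds damaged proteins. Its log2 fold change was −1.70 (standard error 0.371, edgeR adjusted p = 0.0417), lower in the NC population, and only block 1 passed the test. The 5 F1 families were at 35.7, 15.5, 20.7, 56.4 and 48.6 CPM. The N1 families ran from 2.69 to 7.51 CPM (median 3.86), the N2 families from 2.75 to 8.37 (median 3.83) and the F2 families from 4.82 to 8.22 (median 6.16). F1 stood above the other 3 lines with no overlap, and those overlapped one another. In block 1 the change was −2.999 (standard error 0.369, edgeR adjusted p = 0.0491) and in block 2 −0.47 (standard error 0.255, adjusted p = 0.380).

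The population difference of LOC108564555 differed between the blocks by −2.53 on the log2 scale (edgeR interaction test, adjusted p = 0.0159), a test that 27 of all genes (0.229%) passed at 0.05. Its adjusted p was at most 0.0370 when any family was left out, and the pooled difference held at 0.05 in 9 of 23 such fits. In 13 other settings, which include each block alone, the difference had an adjusted p under 0.05 in 11. The values ran from 0.000227 with DESeq2 and 0.000800 in edgeR with the 4 lines as groups to 0.380 in block 2 alone. The highest value in a pooled fit was 0.0572, in edgeR with library totals. F1 also differed from F2, by 2.48 (edgeR adjusted p = 0.00233), and it was the only DEG between these 2 lines of the FC population. Raised with care, the F1 families were at 28.9 to 63.8 CPM and the other 3 lines at 0.956 to 6.29. The change with care was −4.13 in block 1 (standard error 0.347, edgeR adjusted p = 0.000575) and −0.92 in block 2 (standard error 0.309, adjusted p = 0.351), and the interaction test gave −3.21 (standard error 0.454, adjusted p = 0.00251, passed by 13 genes, 0.11%).

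**Figure D2:**
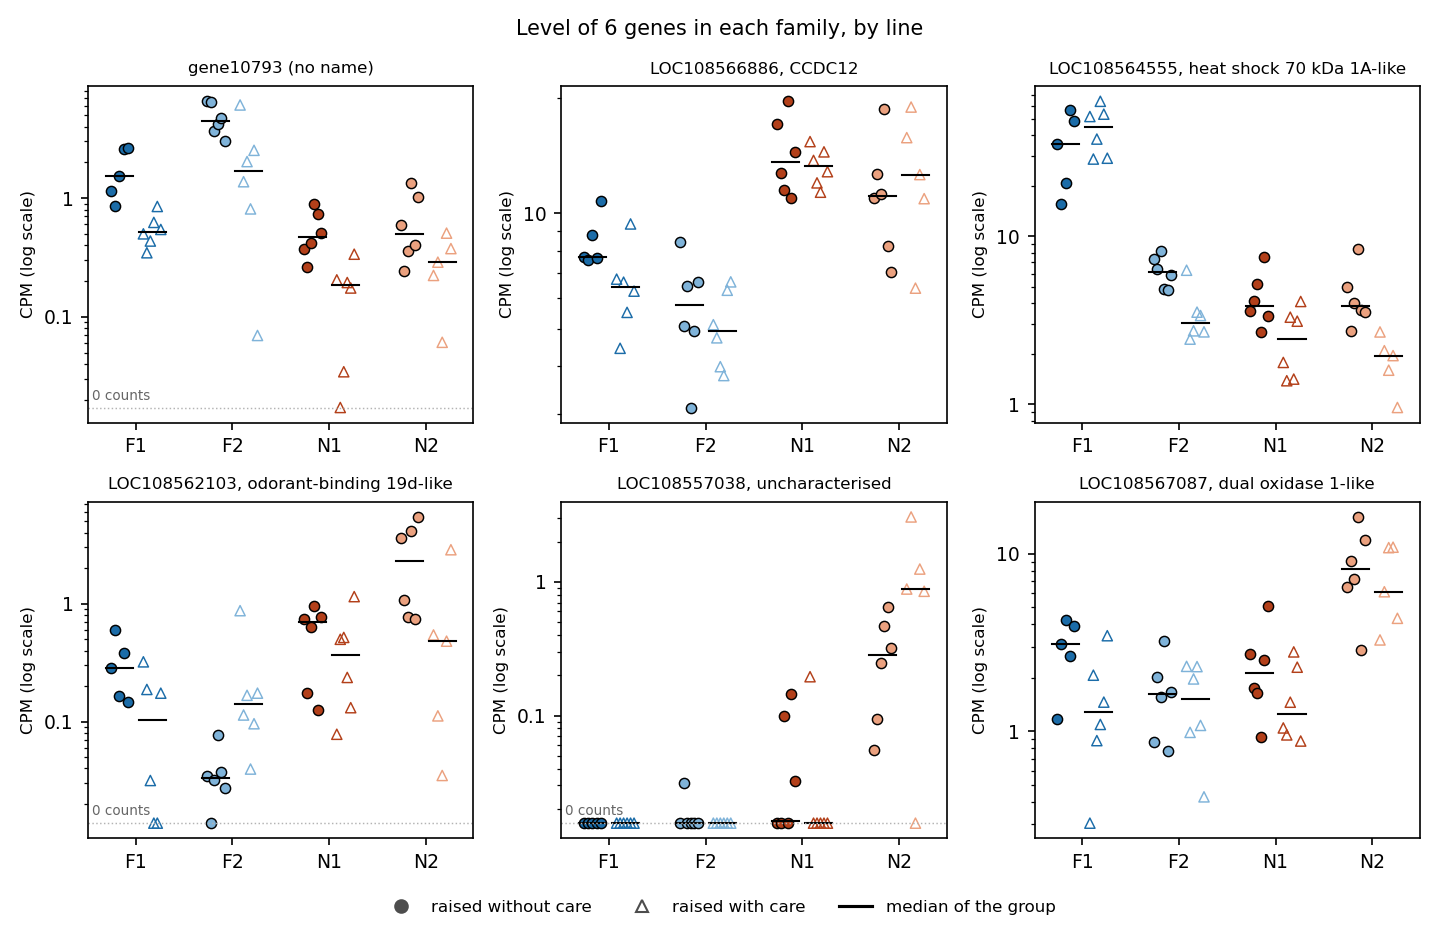
Level of 6 genes in each family (CPM, log axis; families with 0 counts are drawn on the dotted line), by line, with filled circles for families raised without care, open triangles for families raised with care and bars for group medians. The heat shock gene is high in F1 alone in both environments, the odorant-binding and dual oxidase genes reach their highest values in N2, and without care gene10793 and LOC108566886 overlap little between the populations in either block.

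Odorant-binding proteins carry hydrophobic odours to the receptors of sensory hairs. Both listed members had positive fold changes over the 2 blocks, and neither passed at 0.05 in the edgeR fit with block as covariate. LOC108562103, general odorant-binding protein 19d-like, ran from 0.124 to 5.44 CPM in NC families (median 0.774) and from 0 to 0.596 CPM in FC families (median 0.0765), a log2 fold change of 3.35 (standard error 0.871, edgeR adjusted p = 0.0740). The call depended on the fit: the adjusted p was under 0.05 in 6 of 13 other settings, which include each block alone. Among the 6 were DESeq2 (6.11e-05) and edgeR with the 4 lines as groups (0.00166), and the range was from 6.11e-05 to 0.598. N2 was high, at 0.736 to 5.44 CPM, and F2 low, at 0 to 0.0765, with no overlap, while N1 (0.124 to 0.961) and F1 (0.147 to 0.596) overlapped. The change was 6.21 (standard error 0.775, edgeR adjusted p = 0.00813) in block 2 and 0.86 (standard error 0.578, adjusted p = 0.598) in block 1.

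The population difference of LOC108562103 differed between blocks by −5.35 (edgeR interaction test, adjusted p = 0.0159), and the adjusted p was at most 0.0383 when any family was left out. With care the same test gave 0.15 (standard error 1.45, edgeR adjusted p = 0.978), and N2 families then ran from 0.0349 to 2.87 CPM against 0.0395 to 0.873 in F2. The second gene, LOC108567230, general odorant-binding protein 69a-like, had 0 counts in all 6 F2 families and 0 to 0.346 CPM in N2. Summed over families, it was at least 25.5-fold higher in N2, taking 3 counts over the group as the limit for F2. Of the 6 N2 families 2 had 0 counts, and the difference in block 2 did not pass (edgeR adjusted p = 0.140). In block 1 its range was 0.0311 to 0.409 CPM in N1 and 0 to 0.495 in F1, and over both blocks its log2 fold change was 1.88 (standard error 0.990, edgeR adjusted p = 0.361).

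Among the 10 listed genes of immunity and haemolymph, 1 was higher in the NC population at an edgeR adjusted p under 0.05 (0.289% of all genes) and none was lower (0.331%), with 6 positive and 4 negative fold changes and a median of 0.13. LOC108560730 is annotated as an inducible metalloproteinase inhibitor, a kind of protein that blocks bacterial proteases in moths. It was close to the lower limit of the data: the 12 NC families ran from 0 to 0.572 CPM (median 0.0365) with 5 at 0, and 10 of the 11 FC families were at 0, with 0.0183 CPM in F1_04. N2 carried most of the signal, at 0.176, 0.0374, 0.530, 0.572, 0 and 0.177 CPM. The fitted log2 fold change was 5.22 (standard error 1.18, edgeR adjusted p = 0.0425). The summed counts were 185 in the NC and 2 in the FC families, a ratio of 83.5 with a 95% exact interval of 22.8 to 695 that covers counting error only. With care, 8 of 11 NC families and none of 12 FC families had counts, at least 34.6-fold higher by the same limit of 3 counts. Its call without care was lost in 19 of the 23 fits that left out a family (adjusted p 0.0265 to 0.102).

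LOC108567087, dual oxidase 1-like, belongs to the enzymes that make hydrogen peroxide at epithelia, in the *Drosophila* gut as a defence against microbes. It passed at 0.05 in block 2 and not in block 1. N2 families ran from 2.87 to 16.1 CPM (median 8.18) and F2 families from 0.769 to 3.23 (median 1.61), whereas N1 (0.922 to 5.08) and F1 (1.17 to 4.24) overlapped. The change was 2.40 (standard error 0.435, edgeR adjusted p = 0.0312) in block 2, −0.31 (standard error 0.418, adjusted p = 0.787) in block 1 and 1.08 (standard error 0.453, adjusted p = 0.240) over both, and the difference between blocks did not pass, with an adjusted p of 0.0590. With care, N2 families at 3.27 to 10.9 CPM were again all above F2 families at 0.427 to 2.32.

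The other immune genes did not pass. LOC108558285, a defensin (a small antimicrobial peptide), had a log2 fold change of −1.87, and LOC108566479, lysozyme C-like, which digests bacterial cell walls, had 0.38. For LOC108559303, phospholipase A2 inhibitor-like, the value was 1.06 (standard error 0.418, edgeR adjusted p = 0.217). LOC108564697, NADPH oxidase 5, LOC108564562, annulin-like, and LOC108560296, C-type lectin 37Db-like, had negative values in block 1 (−1.27, −1.02 and −0.63) and positive ones in block 2 (0.67, 0.49 and 0.28).

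Cytochrome P450 enzymes and UDP-glucuronosyltransferases modify food compounds, hormones and toxins. None of the 5 listed members passed at 0.05, and all 5 had positive fold changes over both blocks, with a median of 0.43. The most abundant, LOC108560973, cytochrome P450 4C1-like, ran from 18.6 to 182 CPM in NC families (median 73.9) and from 15.9 to 61.8 CPM in FC families (median 43.5). Of the 12 NC families, 7 were above every FC family. Its log2 fold change was 0.99 (standard error 0.345, edgeR adjusted p = 0.169). The 3 genes annotated as cytochrome P450 9e2-like had positive changes in block 1 and negative ones in block 2: 1.57 and −1.19 for LOC108557953, 0.60 and −0.50 for LOC108566901, and 0.96 and −0.05 for LOC108557937. How reads shared by such similar copies were assigned is not given in the sources used here, so their separate values are uncertain.

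All 4 listed receptor genes had an unadjusted p under 0.05, against 15.6% of all genes, and none an adjusted p under 0.05. LOC108561581, a kainate-type glutamate receptor gene, ran from 0.262 to 2.50 CPM in NC families (median 0.775) and from 0.196 to 1.37 in FC families (median 0.351). Its change was 0.83 (standard error 0.380, edgeR adjusted p = 0.289), and with care 1.88 (standard error 0.350, adjusted p = 0.0306). The difference between the environments, −1.05, had an edgeR adjusted p of 0.621. LOC108561283, a receptor-type guanylate cyclase gcy-28-like (a signalling receptor described in *Caenorhabditis elegans*), was above the FC median in 12 of 12 NC families, with a change of 0.75 (standard error 0.287, adjusted p = 0.207). LOC108561576, trace amine-associated receptor 5, had 0.67. LOC108567943, orexin receptor type 2-like, had −3.36 (standard error 0.989, edgeR adjusted p = 0.111), on at most 9 counts in any NC family and at most 89 in any FC family.

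The listed cuticle genes, which encode structural proteins of the larval and pupal exoskeleton, had fold changes of opposite sign in the blocks. In block 1, 8 of 10 had a negative log2 fold change (median −2.08) and 5 of those 8 an unadjusted p under 0.05, against 5.17% of all genes in that direction. In block 2 all 10 were positive (median 0.78) and none had an unadjusted p under 0.05. The difference between the blocks had an unadjusted p under 0.05 in 5 genes, all 5 negative. Of all 11777 genes, 942 had such a negative difference, and 13.4% had one in either direction. An edgeR adjusted p under 0.05 for it was found in none of the 10 (0.229% of all genes). The summed level of the 10 genes ran from 840 to 4967 CPM in F1, 949 to 1735 in N1, 908 to 3186 in F2 and 940 to 4881 in N2, so every pair of lines overlapped. F1_01 and N2_08 held the highest sums. Without F1_01 the block 1 median was −1.39, with 2 genes at an unadjusted p under 0.05, and without N2_08 the block 2 median was 0.46, with 8 of 10 positive. Both settings were added after the values were seen, and shares over all genes were not computed for them.

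Of the 5 listed genes of sugar uptake and breakdown, 4 had negative values in block 1 (median −1.32) and 2 in block 2 (median 0.02), and 3 kept their sign. F1_01 and N2_08 held the highest sums, 44.4 and 85.5 CPM. Without F1_01 the block 1 median was −0.64, and without N2_08 the block 2 median was −0.73 with 4 of 5 negative, both settings added after the values were seen. LOC108561928, a glucose dehydrogenase, had −3.37 in block 1 and 1.38 in block 2. LOC108569492, glucose transporter type 1-like, had −0.52 over both blocks and LOC108564221, a trehalose transporter Tret1-like (trehalose is the blood sugar of insects), had −1.17. None passed at 0.05.

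**Figure D3:**
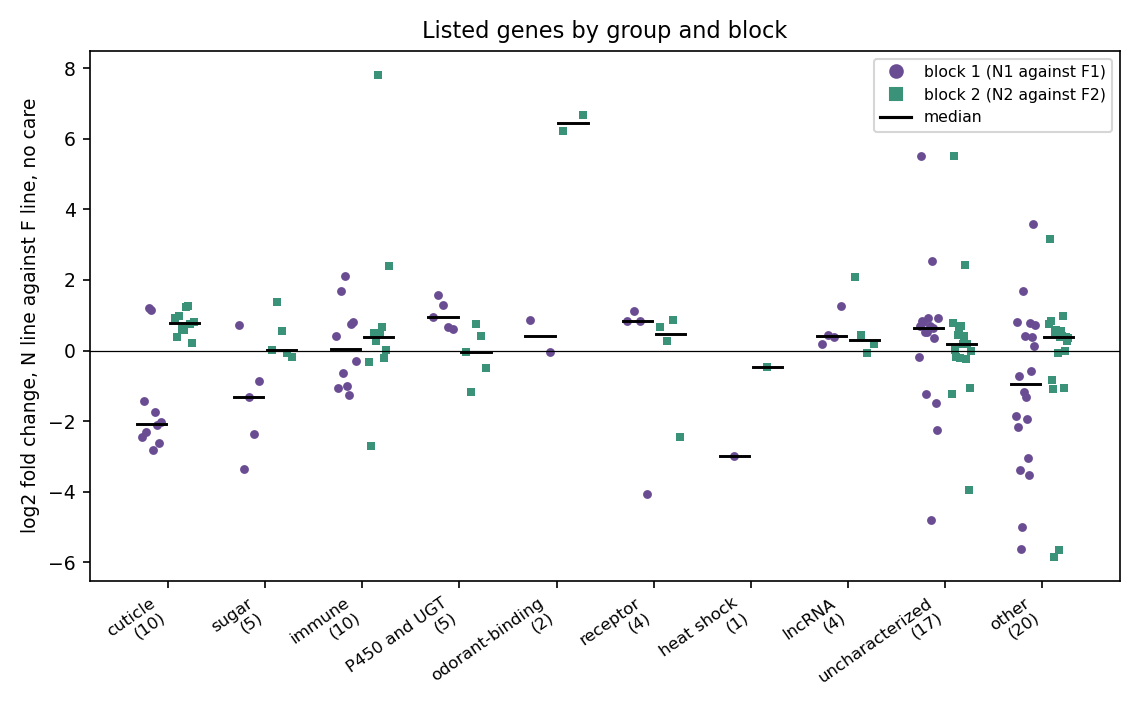
Log2 fold change of each of the 78 tested listed genes (y axis, N line against F line, no care) by group (x axis, number of genes in brackets), with circles for block 1, squares for block 2 and bars for medians. Of the 10 cuticle genes, 8 lie below 0 in block 1 and all 10 lie above 0 in block 2, and the heat shock gene lies at −2.999 in block 1 and −0.47 in block 2.

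Some listed genes were detected almost only in 1 population. A gene could pass the count filter through 1 population alone, and the list was picked from these libraries and the FC families raised with care. Such one-sided detection and the size of the folds were therefore partly set by how the genes were chosen. This also holds for the metalloproteinase inhibitor gene above and the CREG1-like gene below. LOC108557038, an uncharacterised gene, had 0 counts in 10 of 11 FC families, with 0.0314 CPM in F2_38, and ran from 0 to 0.649 CPM in the NC families (median 0.0965) with 3 at 0. All 6 N2 families had counts, at 0.0554 to 0.649 CPM, and 3 of 6 N1 families did, at up to 0.145. The fitted log2 fold change was 5.50 (standard error 0.958, edgeR adjusted p = 0.0156), and 0.0607 without F2_38. The summed counts were 242 against 4, a ratio of 54.6 with a 95% exact interval of 21.1 to 202 that covers counting error only. With care all 12 FC families were at 0 and 5 of 11 NC families had counts, at least 250-fold higher by the limit of 3 counts, with 1 N2 family at 3.05 CPM. N2 carried most of this signal, with a mean of 1.21 CPM against 0.0325 in N1, where 5 of 6 families were at 0.

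LOC108562373, protein CREG1-like (a secreted glycoprotein linked to growth control in mammals), had the reverse pattern. It had 0 counts in all 12 NC families and up to 0.175 CPM in the FC families, where 5 of 11 had counts. It was at least 25.1-fold lower in the NC population by the same limit, with an edgeR adjusted p of 0.121 for the fitted difference. With care it again had 0 counts in all 11 NC families and counts in 9 of 12 FC families. Low values in the table gather at multiples of 4, so 1 read may be worth more than 1 count, and these bounds may then be too high and the intervals too narrow.

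Several other listed genes had their extremes in 1 line. LOC108569073, annotated as vicilin-like, was at 0.766 to 3.33 CPM in N1 and at 0.0484 to 0.396 in F1, with no overlap, and its change was 3.57 in block 1 (standard error 0.632, edgeR adjusted p = 0.184) and 0.39 in block 2 (standard error 0.605). Over both blocks it was 1.82 (standard error 0.612, edgeR adjusted p = 0.156). LOC108561634, an axonemal dynein heavy chain (a motor protein of cilia and sperm tails), reached 8.84 CPM in F1_04 and 2.89 in F1_03, against at most 0.547 in any NC family, with a change of −2.25 (standard error 0.698, edgeR adjusted p = 0.126). LOC108564141, the reverse transcriptase of a jockey-type mobile element, reached 5.50 CPM in F2 and at most 0.176 in any NC family, with a change of −3.65 (standard error 1.19, adjusted p = 0.145). Such elements exist in many copies and their counts are uncertain. LOC108559242, nose resistant to fluoxetine 6-like (a membrane protein described in *C. elegans*), was above the FC median in 12 of 12 NC families, with a change of 2.02 (standard error 0.596, adjusted p = 0.111). LOC108565191 was higher in the NC population in both blocks, by 2.53 and 2.42 (edgeR adjusted p = 0.477 and 0.187). Over both blocks its change was 2.49, with an adjusted p of 0.0731 in edgeR and 0.00329 in DESeq2. LOC108567300 and LOC108567299 had −1.69 and −2.55 (edgeR adjusted p = 0.152 and 0.133).

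Farnesol dehydrogenases oxidise a precursor of juvenile hormone. LOC108563277, farnesol dehydrogenase-like, ran from 1.34 to 40.96 CPM in NC families (median 13.7) and from 2.51 to 18.003 in FC families (median 6.94), a change of 1.09 (standard error 0.407, edgeR adjusted p = 0.195). The 4 listed long non-coding RNAs all had positive values (median 0.56), with the highest, 1.13, in LOC108557136 (edgeR adjusted p = 0.261).

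The blocks were also compared separately, to see whether the populations differed in the same genes in each. N1 against F1 gave 0 DEGs, with 1 gene (0.00849%) at an edgeR adjusted p under 0.05, the heat shock gene above, and 1167 (9.91%) at an unadjusted p under 0.05, while DESeq2 gave 17 DEGs. N2 against F2 gave 3 DEGs (0.0255%), LOC108562103 (higher, 0.00849%) and 2 without a name (lower, 0.017%), and DESeq2 gave 124 DEGs. At an adjusted p under 0.05 block 2 had 84 genes higher (0.713%) and 53 lower (0.45%), together 137 (1.16%), and 2016 genes (17.1%) had an unadjusted p under 0.05. Leaving out 1 of the 12 families of block 2 gave 0 to 3 DEGs, with 0 without F2_36, F2_41, F2_43, F2_47, N2_01, N2_03 or N2_10. The lines did not overlap in 117 genes (0.993%) in block 1 and in 325 (2.76%) in block 2. The difference between the blocks was itself a DEG in 1 gene without a name (0.00849%), with 1581 (13.4%) at an unadjusted p under 0.05. Lines within a population differed in 1 DEG for F1 against F2 (0.00849%) and in 5 for N1 against N2 (0.0425%).

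Across all genes tested, the N1 minus F1 and N2 minus F2 changes were nearly uncorrelated. Pearson's r was 0.03 and Spearman's rho 0.09, and 53.7% of genes had the same sign, where the 2 comparisons share no library and genes are not independent replicates. The sign of r was not stable: it was −0.0604 without F1_09A, 0.117 without N2_08 and −0.0199 over genes with a mean of at least 500 counts. With care the same correlation was −0.25, with 41.6% of the same sign. Within block 2 the changes without and with care had r = 0.47, and within block 1 r = 0.16. All 73 genes at an adjusted p under 0.05 had the same sign in both blocks, which the pooled test itself favours, and 1 of them, LOC108564555, also passed the test for a difference between blocks.

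**Figure D4:**
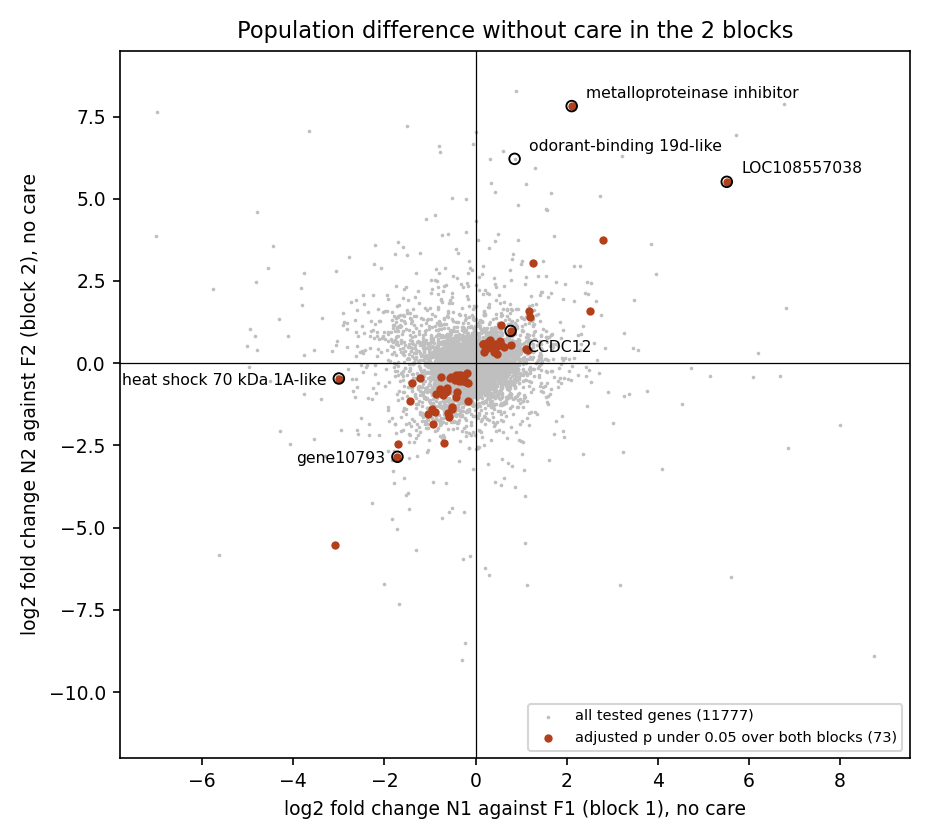
Log2 fold change of N1 against F1 (x axis, block 1) and of N2 against F2 (y axis, block 2) without care for each of 11777 genes, with the 73 genes at an adjusted p under 0.05 over both blocks in colour and 6 genes circled. The grey cloud shows no slope (r = 0.03), the coloured genes lie at the lower left and upper right, and the heat shock and odorant-binding genes lie close to an axis.

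Libraries raised with care, from other families of the same lines, gave a separate measure of these genes. Of the 73 genes, 69 had the same direction with care, against 6658 of all 11777 genes (56.5%). The direction was the same in 51 of them within block 1 and in 60 within block 2, where the shares over all genes were not computed. With care, 21 of the 73 had an unadjusted p under 0.05 in the same direction and 0 in the other. Of all 11777 genes, 648 had one in the same direction and 213 in the other, together 861 (7.31%). An edgeR adjusted p under 0.05 with care was found in 4 of the 73 and in 8 of all genes (0.0679%). The median size of the change was 0.65 without care and 0.25 with care, in the direction seen without care. Since the genes were chosen for their change without care, the smaller value with care is not a test of a difference. The direct test of that difference gave 0 genes at an edgeR adjusted p under 0.05 (0%), with 940 (7.98%) at an unadjusted p under 0.05, and DESeq2 gave 1 DEG.

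**Figure D5:**
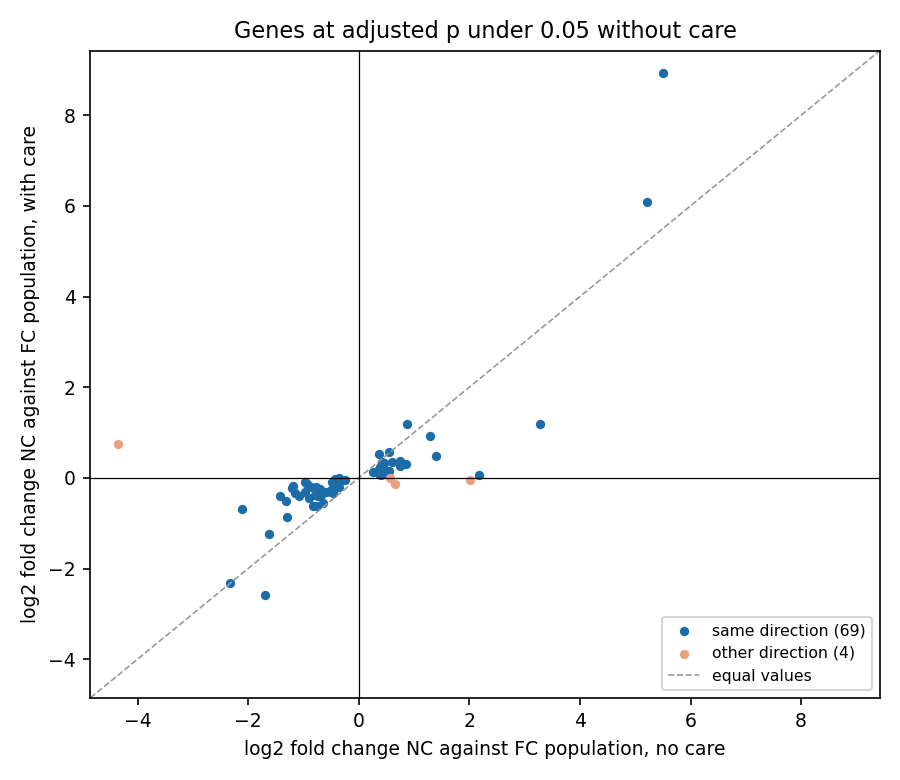
Log2 fold change of the NC against the FC population without care (x axis) and with care (y axis) for the 73 genes at an adjusted p under 0.05 without care. Blue points (69) have the same direction in both environments and orange points (4) do not, and most points lie nearer to 0 on the y axis than the dashed line of equal values.

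Population took a small share of the variation among families. With block accounted for, it explained 7.47% of the summed squared distances in log2 CPM (permutational analysis of variance, permutation p = 0.0347, labels permuted within block), against 8.61% for block and 6.16% for their interaction, with 77.8% left among families within lines. On variance stabilised values the share was 7.39% with a permutation p of 0.0791, and on the 500 most variable genes 7.67% with a permutation p of 0.0778, so the call was lost in both. It was also lost in 7 of 23 fits that left out a family, with permutation p from 0.0527 without F2_38, through N1_30, N2_03, F2_36, N1_35 and N2_10, to 0.0772 without F1_09A. The 4 lines together explained 22.2% (permutation p = 0.00398). Within block 2 alone population explained 15.6% (permutation p = 0.0195), and within block 1 alone 14.2% (permutation p = 0.119). In the 23 libraries raised with care, population explained 3.70% (permutation p = 0.605). Families of the NC population lay 81.5 ± 13.6 (SD, n = 12) log2 CPM units from the centre of their line and FC families 76.4 ± 9.73 (SD, n = 11), a difference of 5.10 that did not pass a 2-sided permutation test within block (p = 0.325). It was 2.50 without N2_08 (permutation p = 0.567) and 8.37 without F1_06 (permutation p = 0.0966).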

How the data were processed

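RNA was measured in heads of first instar larvae, pooled per family. Per the study's methods, the authors trimmed the reads, aligned them with HiSat2 and quantified them with StringTie on the RefSeq gene set of the species. The deposited file holds whole-number counts per gene for 46 libraries, and 0 columns were left aside. How StringTie output became whole numbers is not given in the sources used here, and 39.8% of values from 1 to 100 were multiples of 4, where 25% would be expected of whole numbers. The 14 bisulfite samples were not analysed here.

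A gene was kept where 10% or more of the 46 libraries had 15 counts or more (11777 of 13761). Families were grouped by their labels. The 23 no-care libraries were fitted in edgeR 4.0.16 (TMM, quasi-likelihood test, Benjamini-Hochberg adjustment over all tested genes) with population and block, in R 4.3.3. A DEG had an adjusted p under 0.01 and a log2 fold change of at least 1 in size. Standard errors were taken from the fold change and the F statistic. CPM values used TMM factors over the 46 libraries. Shares of variance were computed in vegan 2.7.1 (99999 permutations), and the centroid test used 100000 resamples. DESeq2 1.42.0 and ashr 2.2.63 were alternatives, as were other filters, scalings, values divided by 4, single blocks and each library left out.

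Named genes were DEGs with a name and the listed genes grouped by product, with all P450, odorant-binding, receptor and heat shock genes and those at an unadjusted p under 0.05. Names came only from the study's list, which matched 82 identifiers. The 2 higher and 2 lower genes without a name, and the cuticle, sugar and immune genes named beyond the rule, were chosen after their values were seen. The members and lists were chosen with earlier results of these data known. The fits were tested on simulated data. Totals of 102720000 to 145666000 counts make counting error small except in genes with few counts.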

Additional observations from a re-analysis of the deposited data

Results flagged for a closer look

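The population difference of 2 named genes differed between the blocks without care: by −5.35 on the log2 scale for LOC108562103, the odorant-binding protein 19d-like gene, and by −2.53 for LOC108564555, the heat shock 70 kDa protein 1A-like gene, both (N1 minus F1) minus (N2 minus F2) and both with an edgeR adjusted p of 0.0159.

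In 8 of 132 groups of values, 1 family lay far from the rest of its line, where chance flags about 1 in 20 groups. Levels here are log2(CPM + 0.01), so that 0 counts gives −6.64. F1_04 was high in LOC108560730, with 2 counts (−5.14) against 0 (−6.64) in the other F1 families, and low in LOC108559242, at −5.71 against −1.14 or more. F1_01 was low in LOC108567230, at −6.64 against −2.58 or more. F2_47 was low in LOC108559242, at −6.64 against −1.95 or more. F2_41 was high in LOC108567300, an uncharacterised gene, at −1.91 against −2.62 or less, and F2_38 in LOC108557038, with 4 counts (−4.60) against 0 (−6.64). Where all other families of a line are at 0, any count is flagged, so the flags of LOC108560730 and LOC108557038 rest on very few counts. N2_07 was high in LOC108569073, at 0.40 against −1.70 or less, and N2_08 was low in LOC108563277, at 0.43 against 3.26 or more.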

How the results depend on the processing

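No paired analysis was possible because the family numbers name families, and no number is shared by the F and N lines of a block. The single DEG became 10 with all 46 libraries in the fit, 5 (0.0425% of genes) with the 4 line groups, 42 with DESeq2, 31 with ashr, 0 in block 1, 3 in block 2, 19 at an adjusted p under 0.05 with 2-fold, and 0 (without F1_06, F1_09A or N2_01) to 4 (without N1_32) with a family left out. The 73 genes at an adjusted p under 0.05, a count added after seeing the data, became 235 with 46 libraries, 318 with DESeq2 or ashr, 29 with library totals, 1 in block 1, 137 in block 2, and 15 (without F2_36) to 216 (without N1_37) with a family left out; 14 of the 73 were kept in every such fit and 72 were among the 318. For N1 against F1, DESeq2 gave 17 DEGs and leaving out a family 0 to 1. For N2 against F2, DESeq2 gave 124, a filter of 50% of libraries 5, and leaving out a family 0 (without F2_36, for one) to 3. The difference between blocks gave 35 with DESeq2 and 1 to 4 (without F2_38) with a family left out, and that between environments 1 with DESeq2. The population share of variance was 7.39% on variance stabilised values, 7.67% for the 500 most variable genes (permutation p 0.0791 and 0.0778), and 6.74% to 8.52% with a family left out. Signs reversed in block 1 for LOC108567230 (−0.0503) and LOC108567087 (−0.31), in block 2 for LOC108557953 (−1.19), LOC108566901 (−0.50) and LOC108557937 (−0.0457), without block as covariate for LOC108566901 (−0.0697), and with a family left out for LOC108557953 (−0.15 to 0.336) and LOC108566901 (−0.0758 to 0.131). The causes were not tested. Other settings kept these counts within 1.5 times.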
